A study of Arabidopsis thaliana with 6 samples.

Results

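The regions described here are places in the Arabidopsis thaliana genome where PIF1 was repeatedly enriched and that lie close to a gene without being in it. Overlapping peaks of the 3 deposited PIF1 peak lists (1 bp or more in common) were joined, and a joined region to which 2 or 3 lists contributed is called a consensus region. Each consensus region was placed at the mean of its peak summits, the summit being the point of highest tag pile-up in a peak. The regions described here are the 2079 of 4845 consensus regions placed 1 to 1000 bp outside the nearest protein-coding nuclear gene, and they are called near-gene regions below. They made up 42.9% of consensus regions (95% Wilson interval 41.5 to 44.3). Of the other consensus regions, 1732 lay inside a gene, 585 lay 1001 to 2000 bp outside and 449 lay farther away. These regions were chosen by the measured peaks and the positions of their summits, so their number, enrichment and distances are descriptions and were not tested.

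PIF1 is a basic helix-loop-helix (bHLH) transcription factor that holds back seed germination and seedling greening in darkness and is degraded when phytochromes are activated by light. Such factors bind as dimers to short E-box sequences, above all the G-box, which often stand just upstream of plant genes. In a compact genome such as that of Arabidopsis, much regulatory DNA is found next to genes.

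The tested seedlings overexpressed PIF1 fused to a Myc epitope tag, and wild-type seedlings without the tag went through the same immunoprecipitation with an anti-Myc antibody. All were whole seedlings of 3 days, given 3 h of white light at 21 °C to start germination and then grown in darkness. Each of the 3 PIF1 and 3 wild-type (WT) libraries pooled 4 immunoprecipitations of 2 biological replicates. Each list compares 1 PIF1 library with the WT library of the same number, so the lists, not the regions, are the replicates. The promoter of the transgene was not given in the sources used here, and sites taken by an overexpressed protein need not equal those of the natural one. Strong binding in few cells and weak binding in many cannot be told apart in whole seedlings. PIF1 libraries 1, 2 and 3 held 14209334, 5825479 and 5721184 filtered tags, and the WT libraries held 17323572, 6134032 and 7435352.

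The 3 lists did not contribute equally to the near-gene regions. List 1 had a peak in 803 of the 2079 (38.6%), list 2 in 2056 (98.9%) and list 3 in 1937 (93.2%). Lists 2 and 3 alone held 1276 of them, lists 1 and 2 alone held 142, lists 1 and 3 alone held 23, and all 3 lists held 638. A near-gene region was thus in most cases a place found by lists 2 and 3 and missed by list 1. PIF1 library 1 had the most tags after redundant ones were removed, but the fewest before, with 16281353 against 19185319 and 17050217 in libraries 2 and 3.

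Of the near-gene regions 30.7% (28.7 to 32.7) were held by all 3 lists, against 28.7% of all consensus regions and 27.2% (25.6 to 28.9) of all the others together. The others were not alike. The share was 23.2% (21.3 to 25.3) for regions inside genes, 35.0% (31.3 to 39.0) for those 1001 to 2000 bp outside and 32.3% (28.1 to 36.8) for those farther out. Near-gene regions thus stood above regions inside genes, and their interval overlapped those of both outer classes. These intervals cover counting error only, and neighbouring regions are not independent.

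The fold enrichments, which are the authors' ratios of PIF1 tags at a peak to the local WT background, put near-gene regions between those inside genes and those 1001 to 2000 bp outside in each list. Near-gene regions had a median of 3.73 in list 1 (quartiles 3.05 to 4.77), 7.56 in list 2 (5.46 to 11.16) and 4.54 in list 3 (3.62 to 6.22). Regions inside genes had lower medians of 2.86, 6.32 and 4.01, and regions 1001 to 2000 bp outside had higher ones of 4.19, 8.28 and 4.88. Regions beyond 2000 bp had 3.57, 7.20 and 4.54, so the medians did not rise steadily with distance. The quartile ranges of these classes overlapped in every list, and values of different lists were scaled separately and are not compared. The ratio of the near-gene median to the one inside genes was 1.31, 1.20 and 1.13 in lists 1, 2 and 3. Median tag counts per peak in near-gene regions were 187, 154 and 83. The false discovery rate in the authors' deposited lists, made by swapping PIF1 and WT, stood at 100% for all 803 near-gene regions with a peak in list 1, for 0 of 2056 in list 2 and for 1285 of 1937 in list 3. A rate of 5% or less was given to 0, 635 and 2 of them.

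**Figure D1:**
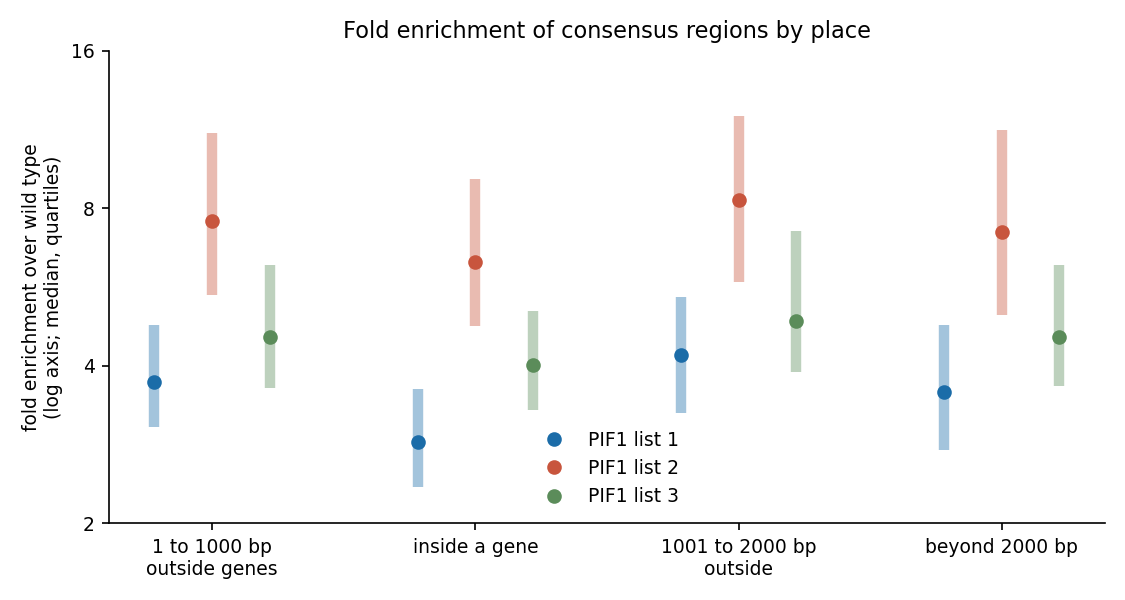
Fold enrichment over wild type (log axis) of consensus regions by place, with 1 point per PIF1 list for the median and a bar for the quartiles. In each list the median of regions 1 to 1000 bp outside genes stands above that of regions inside genes and below that of regions 1001 to 2000 bp outside.

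The lists placed most near-gene regions sharply. The outermost summits of a region, over all its peaks, lay a median of 49 bp apart (quartiles 23 to 131). In 1053 regions (50.6%) they lay within 50 bp. Regions inside genes had a median of 74 bp (30.75 to 293.25), with 38.2% within 50 bp. Regions 1001 to 2000 bp outside were placed more sharply, with a median of 44 bp and 54.2% within 50 bp, and those beyond 2000 bp had 63 bp and 45.0%. In 192 near-gene regions the summits were more than 500 bp apart, so that the mean may fall between separate sites. In 148 near-gene regions a list had more than 1 peak, so a wide range need not mean that the lists differed. Across near-gene regions, Spearman's rho between the fold enrichments was 0.651 for lists 1 and 2 (n = 780). It was 0.601 for lists 1 and 3 (n = 661) and 0.542 for lists 2 and 3 (n = 1914). Across the other consensus regions it was higher for lists 1 and 2 (0.697) and lists 1 and 3 (0.675), and lower for lists 2 and 3 (0.519). These points share libraries and local background, and no p is given for them.

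Near-gene regions crowded towards the gene. Their median distance from the nearest gene was 260 bp (quartiles 104 to 573), and 886 of them (42.6%, 40.5 to 44.8) lay within 200 bp. Intergenic DNA grows scarcer with distance from a gene, so the counts were divided by the intergenic sequence present at each distance. There were 114.7 regions per Mb (95% exact Poisson interval 107.3 to 122.6) at 1 to 200 bp, and 74.8 (69.8 to 80.1) at 401 to 1000 bp. Just beyond the limit, at 1001 to 2000 bp, there were 65.9 (60.6 to 71.4). Within 1000 bp the lowest bin of 100 bp was that at 301 to 400 bp, with 59.4 (50.5 to 69.4), and single bins beyond 1000 bp went lower, to 43.1.

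The crowding was carried by regions of 2 lists. Regions of 2 lists had 84.1 per Mb (77.7 to 90.8) at 1 to 200 bp and 47.0 (43.0 to 51.2) at 401 to 1000 bp, a ratio of 1.79. Regions of all 3 lists had 30.7 (26.9 to 34.9) and 27.8 (24.8 to 31.2), a ratio of 1.102 with overlapping intervals. Their lowest bin within 1000 bp was also that at 301 to 400 bp, at 13.5 per Mb (9.48 to 18.7), below both the nearer and the farther range. These regions are part of the consensus regions above, so this is no second observation. The bin was picked as the lowest, for which its interval makes no allowance. Beyond 1000 bp, the bin at 1601 to 1700 bp came close to it, with 14.4 (7.17 to 25.7).

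The single lists also differed. Peaks at 1 to 200 bp numbered 44.4, 273.1 and 136.8 per Mb in lists 1, 2 and 3, and peaks at 401 to 1000 bp numbered 41.6, 164.1 and 102.0. The ratio was thus 1.07, 1.66 and 1.34, a mean of 1.36 ± 0.299 (SD, n = 3). Without list 2 the ratio over consensus regions was 1.08, without list 3 it was 1.27 and without list 1 it was 1.50, against 1.53 with all lists. With peaks of at least 5-fold alone it was 1.101. The crowding close to the gene was thus nearly lost without list 2 and under the 5-fold cutoff. That cutoff fell unequally on the lists, whose values were scaled separately. For near-gene regions it lay above the upper quartile of list 1 (4.775) and above the median of list 3 (4.54). It lay below the lower quartile of list 2 (5.46). Whether the weaker peaks of each list carried the crowding was therefore not tested. PIF1 libraries 2 and 3 also had the most redundant tags of the PIF1 libraries (70% and 66%, against 13% in library 1). WT libraries 1, 2 and 3 had 24%, 61% and 15%. The part of redundant tags in the crowding was not tested.

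**Figure D2:**
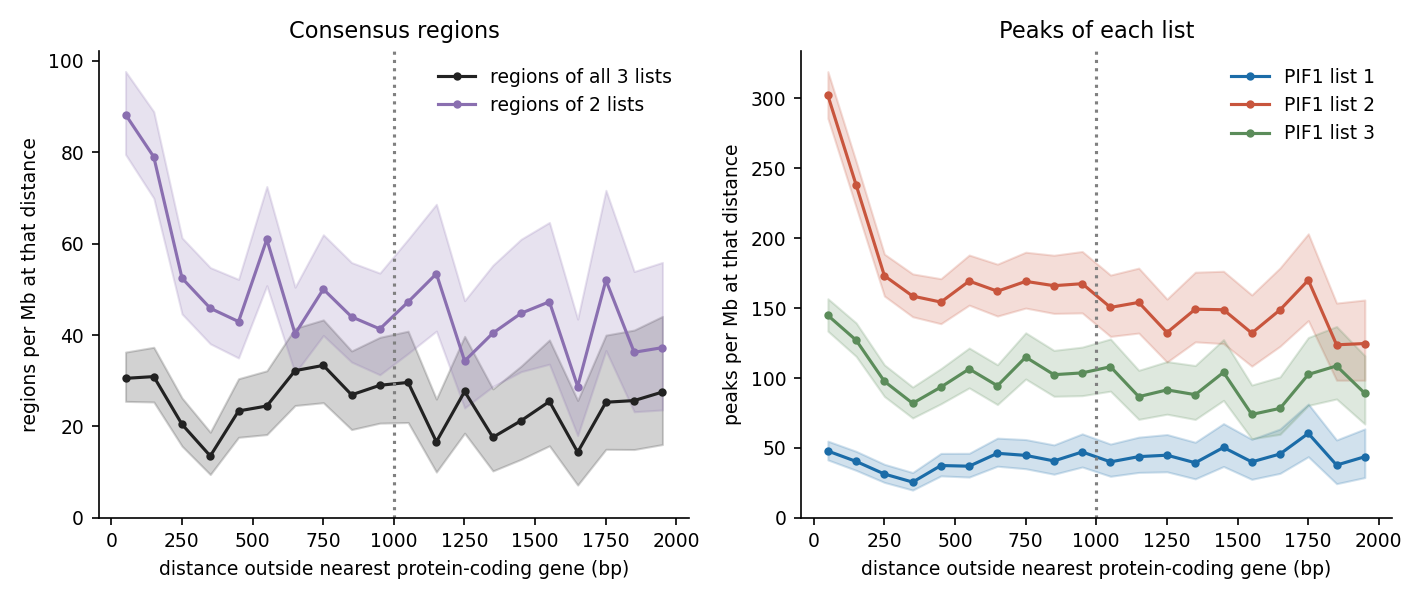
Density by distance outside the nearest protein-coding gene in bins of 100 bp, as consensus regions per Mb (left) and as peaks of each list per Mb (right), with 95% exact Poisson bands and a dotted line at 1000 bp. Regions of 2 lists and peaks of list 2 are densest next to the gene, while regions of all 3 lists and peaks of list 1 show no such rise over the outer distances.

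Support by all 3 lists was lowest next to the gene. It was 20.3% (15.9 to 25.5) for the 271 regions at 1 to 50 bp, and 28.1% for the 384 at 101 to 200 bp. It was 42.2% (36.5 to 48.1) for the 275 regions at 601 to 800 bp and 39.5% (33.1 to 46.3) for the 205 at 801 to 1000 bp. The share at 51 to 100 bp, 32.0% of 231, breaks a steady order. The median fold enrichment was lower in the bin at 1 to 50 bp than in that at 801 to 1000 bp in every list, with 3.17 and 3.85 in list 1, 6.68 and 8.22 in list 2, and 4.05 and 4.59 in list 3.

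**Figure D3:**
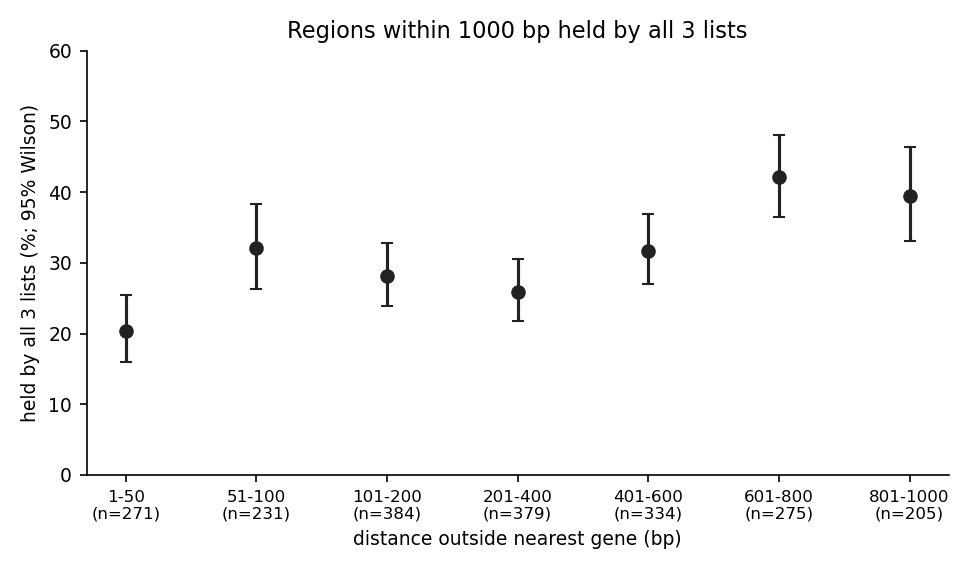
Share of regions held by all 3 lists (%) by distance outside the nearest gene, with 95% Wilson intervals and the number of regions under each bin. The bins at 601 to 800 and 801 to 1000 bp stand at 42.2% and 39.5%, above the 20.3% of the bin next to the gene.

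In each list a larger share of shared than of unshared peaks lay near a gene. In list 1, 37.0% of peaks shared with another list lay 1 to 1000 bp outside a gene, against 6.86% of unshared peaks. In list 2 the shares were 44.8% for shared and 33.6% for unshared peaks, and in list 3 they were 43.6% and 22.8%. The rule used both sharing and distance, and the shared peaks of different lists mark the same regions, so these shares are descriptions and not separate replicates. Left out of the near-gene regions by the need for 2 lists were 3549 regions of 1 list at this distance, of which 2649 were in list 2, 733 in list 3 and 167 in list 1. Their median fold enrichments were 2.56, 4.97 and 3.53 in lists 1, 2 and 3.

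The edges of the distance rule cut through a continuous spread. At 1 bp outside, regions next to TTN5, AT2G23960 and RLP26 had fold enrichments of 4.82, 6.94 and 12.08 in list 2. Other regions also lay at 1 bp. Those of AHL22 and AT3G27210 had 11.53 and 27.43 in list 2, and that of AT3G27210 was held by all 3 lists. At 1 bp inside, regions in CAT2, AT1G62950 and S6K2 had 6.28, 9.72 and 3.61 in list 2, so the values of these few regions overlapped across the gene end. At the outer limit, AT1G19840 (1000 bp), NAC048 (1000 bp) and AT1G65985 (999 bp) had 11.54, 6.89 and 8.33 in list 2. Just past it, PP2CA (1002 bp), SKU5 (1004 bp) and AT1G14340 (1006 bp) had 4.64, 10.75 and 10.57. Of the 271 regions 1 to 50 bp outside a gene 20.3% were held by all 3 lists, against 27.7% of the 249 at 1 to 50 bp inside.

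Many near-gene regions could be assigned to more than 1 gene. Of the 2079, 709 (34.1%, 32.1 to 36.2) had 2 or more genes within 1000 bp. The median length of the gap between the flanking genes was 2017.5 bp (1055.5 to 3572.25). In gaps of 500 bp or less, 46 of 222 regions (20.7%) were held by all 3 lists, against 35.4% of 379 regions in gaps of 4001 to 10000 bp. The share did not rise steadily between these. It was 27.9% at 501 to 1000 bp, 31.9% at 1001 to 2000 bp and 31.6% at 2001 to 4000 bp. In gaps of more than 10000 bp it was 30.9% of 55 regions. A noncoding gene or pseudogene covered 122 near-gene regions (5.87%, 4.94 to 6.96), of which 86 were long noncoding RNA genes. The share was 2.54% for regions inside protein-coding genes and 9.23% for those 1001 to 2000 bp outside. By chromosome, near-gene regions numbered 80.8, 75.6, 76.0, 74.4 and 71.0 per 1000 genes on chromosomes 1 to 5.

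The strongest near-gene regions held by all 3 lists stood beside genes of varied roles, among them BBX29, BBX28 and PIF6 of light signalling. Regions held by all 3 lists were ranked by their mean percentile of fold enrichment within the lists, and the top 10 are named here. The first lay 410 bp from AT5G02580 and had 516, 759 and 352 tags in lists 1, 2 and 3, with summits within 9 bp of each other. LYK4, for a receptor kinase of chitin perception, followed at 315 bp with 328, 365 and 266 tags. CKX5, for an enzyme that breaks down cytokinins, had a region at 664 bp with 510, 713 and 294 tags. In each of these 3 regions the summits of the lists lay within 26 bp.

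The region of rank 4 was nearest to ASY3 (426 bp), for a protein of the meiotic chromosome axis, and had 679, 868 and 588 tags. PIL1, for a bHLH protein of the shade response, lay on its other side at 1208 bp, outside the limit used here. AT5G05965 had a region at 71 bp with 350, 324 and 237 tags. Among the 10 it alone lay within 200 bp of a gene. BBX29 and BBX28, for B-box zinc-finger proteins of light signalling, had regions at 488 and 494 bp, with 654, 774 and 381 tags at BBX29 and 779, 952 and 586 at BBX28. PIF6 (PIL2 in the gene table), a relative of PIF1, had a region at 608 bp with 629, 657 and 377 tags.

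The remaining regions of the 10 were those of AT5G57670 and DVL21. The first, at chromosome 5, 23359071 to 23359957 (TAIR10), lay 832 bp from AT5G57670, and its fold enrichment was 8.36 in list 1, 37.13 in list 2 and 40.35 in list 3. A region at chromosome 3, 8499806 to 8500994, had 9.53, 37.48 and 19.0, with summits within 2 bp. It lay between DVL21 (723 bp), for a small peptide of the DEVIL family, and HGL1 (945 bp), for a glucosidase. In the 100 strongest near-gene regions held by all 3 lists, the median distance was 439.5 bp. Of these, 33 lay within 200 bp and 79 had their summits within 50 bp. Regions of 2 lists were not ranked here.

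In all, 2012 of 27432 protein-coding nuclear genes (7.33%) were the nearest gene of a near-gene region, and 2708 (9.87%) had one within 1000 bp of either end. The number of nearest genes was 640 (2.33%) without list 2, 770 (2.81%) without list 3 and 1867 (6.81%) without list 1. Of the 2012, 1945 had a single region and 67 had 2, and no gene had 3. In 58 of the 67 the regions lay at opposite ends of the gene. Both regions were held by all 3 lists at 4 genes, AT5G02580, AT5G47380, AT1G19840 and LHCA2. The second region of AT5G02580, 479 bp away, had 6.35, 37.12 and 21.2, so that this gene was flanked by strong regions. AT5G47380 had 8.05, 19.63 and 16.72 at 299 bp and 2.92, 7.98 and 6.18 at 608 bp.

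Genes were also read by role, from 17 lists of selected pathway members. In all, 66 of 245 listed genes (26.9%) were nearest to a near-gene region, against the 7.33% of all genes given above. Without list 2 these were 33 listed genes (13.5%), against 2.33% of all genes, and without list 3 they were 36 (14.7%), against 2.81%. Most lists were chosen for known ties to PIF proteins and with earlier results of these data known, so that excess is no evidence of its own. The housekeeping list, meant as a control, had 5 of 12 genes (41.7%) and the floral list, also a control, 0 of 13. Only the clock (58.8%), growth-related helix-loop-helix (55.6%) and ethylene (46.2%) lists stood above the housekeeping share. The other pathway lists stood below it, among them light-signalling bHLH (40.0%), Aux/IAA (33.3%), photoreceptor (31.6%) and B-box genes (30.8%).

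**Figure D4:**
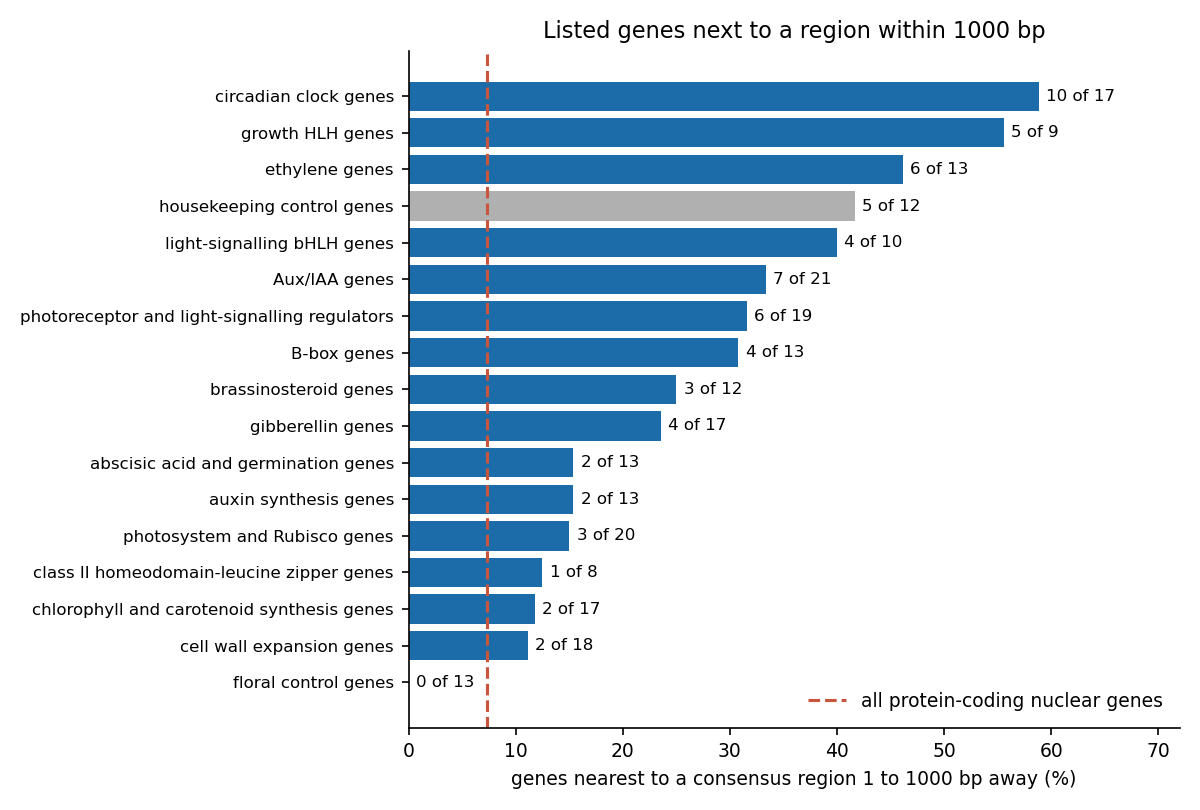
Share of each gene list (%) that is the nearest gene of a consensus region 1 to 1000 bp away, with counts beside the bars, the housekeeping control in grey and a dashed line at the 7.33% of all protein-coding nuclear genes. The circadian clock list is highest with 10 of 17 genes and the floral control list has 0 of 13.

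Circadian clock genes, which time gene activity over the day, had near-gene regions at 10 of 17, and 5 of these regions were held by all 3 lists. Their median distance was 124.5 bp, against 260 bp for all near-gene regions and 165 bp for those of the housekeeping list. Of the 10, 8 lay within 210 bp of the gene, as did 3 of the 5 of the housekeeping list. This limit is wider than the 200 bp used elsewhere, and LHY, at 207 bp, lay between them. PRR9, for a pseudo-response regulator that represses morning genes, had 8.37, 25.47 and 15.8 at 147 bp. LNK2, for a coactivator of evening genes, had 6.65, 21.67 and 12.41 at 26 bp. Both were high in every list and their summits agreed within 29 and 10 bp.

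The other clock regions were weaker or less sharply placed. TOC1, for the evening regulator that represses CCA1 and LHY, had 2.88, 6.35 and 3.54 at 53 bp. GI (770 bp) and LUX (36 bp) had summits 989 and 1016 bp apart. The strongest summits lay 1026 and 233 bp from these genes, which would put the GI region outside the limit. CCA1, LHY, PRR7, LNK1 and CHE (TCP11 in the gene table) had regions of lists 2 and 3 alone, with fold enrichments between 3.78 and 7.94 in list 2. The clock count fell to 6 where only summits within 200 bp were joined and to 2 with peaks of at least 5-fold, against 4 and 1 of 12 for the housekeeping list. Without list 1, 2 or 3 it was 9, 3 and 3 of 17.

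Among light-signalling genes, photoreceptors and their partners had near-gene regions at 6 of 19. PHYB, for the main red-light receptor of seedlings and a direct partner of PIF1, had a region at 140 bp, at chromosome 2, 8138725 to 8141105. Its fold enrichments of 8.36, 39.06 and 25.89 put it just after the top 10. SPA1, a partner of the ubiquitin ligase COP1, had 3.76, 17.52 and 13.37 at 368 bp. FHL, which helps phytochrome A into the nucleus, had 23.98 and 16.93 in lists 2 and 3 at 109 bp, and no peak in list 1. COP1 had 7.65 and 7.37 in lists 2 and 3 at 38 bp. CRY1 and PHYC, for a blue-light and a red-light receptor, had weaker regions. The count of 6 became 2 without list 2 and 2 without list 3.

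Light-signalling bHLH genes had near-gene regions at 4 of 10. Besides PIF6, PAR1 and PAR2, for atypical bHLH proteins that block PIF activity, had 3.79, 15.53 and 11.87 at 804 bp and 4.26, 10.72 and 6.66 at 711 bp. PIF3, another PIF gene, had 11.98 and 4.14 in lists 2 and 3 at 143 bp. B-box genes had 4 of 13, and all 4 regions were held by all 3 lists. The count was also 4 with any 1 list left out and with peaks of at least 5-fold. BBX23 had 5.44, 13.0 and 9.69 at 129 bp, and BBX21, for an activator of light responses, had 3.68, 11.08 and 6.56 at 209 bp. The class II homeodomain-leucine zipper genes, which act in shade growth, had their regions mostly farther out. Just 1 of 8, HAT22, had a near-gene region (4.61, 11.15 and 6.22 at 827 bp), while 6 of 8, HAT22 among them, were nearest to a consensus region 1001 to 2000 bp away, against 2.08% of all genes. Without list 1 the near-gene count was 2 of 8.

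**Figure D5:**
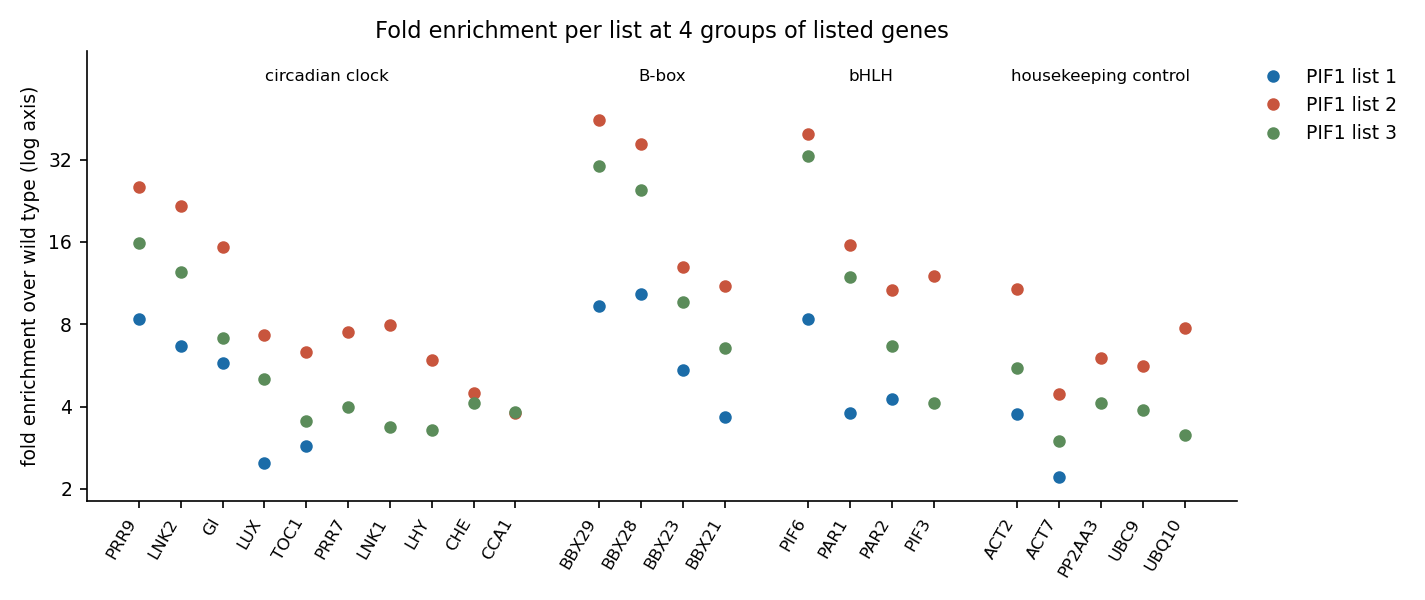
Fold enrichment over wild type (log axis) in each PIF1 list for near-gene regions of the clock, B-box, light-signalling bHLH and housekeeping control lists, 1 column per gene. BBX29, BBX28 and PIF6 stand above 24-fold in lists 2 and 3, and most clock regions and all housekeeping regions stand below 12-fold.

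Auxin and growth genes followed. Aux/IAA genes, for repressors of auxin responses, had near-gene regions at 7 of 21. IAA19 had 4.98, 12.63 and 12.25 at 147 bp, with summits within 5 bp, and IAA7 had 5.6, 12.84 and 9.41 at 602 bp. IAA2 reached 26.9 in list 2, with 4.6 in list 1 and 7.92 in list 3, at 766 bp. IAA16 was counted at 537 bp, but its summits lay 1380 bp apart and the strongest fell inside a gene, so its place is uncertain. The Aux/IAA count was 4 without list 2 and 3 without list 3. Of 13 auxin synthesis genes 2 had near-gene regions, namely YUC8 (10.71, 46.05 and 14.12 at 489 bp) and TAR2 (4.52, 7.56 and 3.87 at 349 bp). Growth-related helix-loop-helix genes had 5 of 9. BEE1 and BEE2, for brassinosteroid-induced factors, had 5.06, 9.65 and 8.5 at 161 bp and 3.44, 18.05 and 4.27 at 148 bp, and CIB1, for a cryptochrome-interacting factor, had 7.65, 17.02 and 15.89 at 640 bp. HBI1 had 11.03 in list 2 but 2.47 in list 3, and the count of 5 became 3 without list 2.

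Among genes of other hormones, the ethylene list had 6 of 13. EIL1, for a master factor of the ethylene response, had 4.01, 17.65 and 8.3 at 508 bp. EBF2, for a protein that removes such factors, had 2.46, 6.32 and 4.05 at 946 bp. ACS8, for an ethylene synthesis enzyme, had 6.33, 19.7 and 13.07 at 993 bp, but the strongest summit lay at 1053 bp. A second ACS8 region, at 184 bp, had 4.76 and 5.21 in lists 2 and 3. HLS1, for a regulator of the apical hook, had 3.11 and 9.31 in lists 1 and 2. The ethylene count was 3 without list 2. The gibberellin list had 4 of 17, among them the DELLA repressor gene GAI with 4.21, 11.42 and 6.49 at 945 bp. GID1B, for a gibberellin receptor, had 4.71, 16.51 and 10.4 at 569 bp, with summits 790 bp apart, and 7.1 and 4.85 in lists 2 and 3 at 375 bp. GA2OX6, whose product inactivates gibberellins, had 13.78 and 3.79 in lists 2 and 3. The gibberellin count was 2 without list 2 and 2 without list 3.

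The brassinosteroid list had 3 of 12, none held by all 3 lists. BAS1, whose product inactivates brassinosteroids, was the strongest with 17.56 and 10.69 in lists 2 and 3 at 42 bp. BAK1 and BIN2, for a co-receptor and a kinase of the pathway, had no more than 4.56. The abscisic acid list had 2 of 13, ABF3 (5.54, 19.65 and 7.93) and ABI5 (6.92 and 5.34 in lists 2 and 3), both genes of bZIP factors. Without list 2 or without list 3 the brassinosteroid count was 0 and the abscisic acid count 1.

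Lists of cell wall and greening genes had shares between 11.1% and 15.0%. Cell wall genes had 2 of 18, EXPA8 (12.72 and 5.23 in lists 2 and 3) and XTH17 (7.01 and 5.0), and 0 without list 2 or without list 3. Chlorophyll and carotenoid genes had 2 of 17, both of the carotenoid branch and both held by all 3 lists. BCH2, for a carotene hydroxylase, had 5.01, 12.18 and 12.89 at 121 bp, and ZEP (ABA1), for zeaxanthin epoxidase, had 5.62, 13.96 and 6.03 at 655 bp and 6.63 and 4.56 in lists 2 and 3 at 24 bp. No listed chlorophyll synthesis gene was nearest to one. The photosystem and Rubisco list had 3 of 20. LHCB2.3 had 5.65, 15.77 and 5.68 at 133 bp, LHCA2 had 3.63, 7.16 and 7.86 at 980 bp and 2.46, 8.6 and 4.91 at 114 bp, and RBCS2B had 2.94 and 10.53 in lists 1 and 2. Copies of such genes are nearly alike, and how the authors placed reads that match several copies is not given in the sources used here.

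Housekeeping genes were the control for such counts. ACT2, for an actin, had 3.77, 10.78 and 5.56 at 495 bp, with summits 1005 bp apart, and ACT7, for another actin, had 2.21, 4.46 and 2.99 at 8 bp. PP2AA3, UBC9 and UBQ10 had regions of lists 2 and 3 with 6.01, 5.63 and 7.73 in list 2. The control count was 1 without list 2 and 2 without list 3. ACT2 stood above the near-gene median of each list, while ACT7, PP2AA3 and UBC9 stood below it in each list that held them, as PRR7, LHY, TOC1, CHE and CCA1 did among the clock genes.

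MicroRNA genes were a further set that the distance rule did not use, since it read protein-coding genes alone. Of 326 annotated ones, 10 (3.07%) had a near-gene region within 1000 bp, and 26 (7.98%) had any consensus region within 1000 bp. Of protein-coding nuclear genes 9.87% had a near-gene region within 1000 bp, but these regions were chosen by their distance to such genes. MIR166e, of a family that restrains homeodomain-leucine zipper genes of class III, had 10.49, 36.58 and 12.95 at 721 bp. MIR168a, which targets the gene of ARGONAUTE1, had 5.79, 18.55 and 7.22 at 382 bp. MIR156b, of a family that times the juvenile phase, was covered by a region with 3.03, 7.37 and 3.09. The other 7 of the 10 had near-gene regions of lists 2 and 3 alone, with fold enrichments of at most 6.64.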

How the data were processed

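Reads were handled with Bowtie 0.12.7, MACS 1.4.1 and CASAVA 1.8.0 on build TAIR10, per the submitters' processing notes. Per the file headers, peaks were called for each PIF1 library against 1 WT library with a p cutoff of 1e-05, an effective genome size of 150000000 bp and a band width of 300 bp, and the PIF1 libraries had 13%, 70% and 66% redundant tags. The deposited lists give per peak a tag count, a score of 10 times the negative log10 of p, a fold enrichment, which is a ratio over the scaled WT background, and a false discovery rate in percent. The rate was not used to select peaks.

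Peaks were merged, placed and counted with Python 3.11.15, pandas 2.3.3 and scipy 1.17.1, in steps tested on simulated data. Distances, names and neighbours came from the RefSeq gene table of assembly TAIR10.1, used without strand, and its coordinates are not printed. All 245 listed genes matched by locus. No genome sequence was used here, so motifs, promoters, the side of the gene and the planned test of fold enrichment by G-box were not analysed. Named genes are those beside the 10 strongest near-gene regions held by all 3 lists, and up to 4 per gene list by mean percentile. Named too are 3 on either side of each distance limit, though other regions tied with those at 1 bp outside. AT3G27210, the other listed genes, microRNA genes and genes with 2 regions were named after their values were seen. The near-gene regions and the lists were chosen with earlier results of these data known. The libraries are labelled as independent, but shared seedlings were not stated either way, so the spread between lists may be partly technical. No test was run; percentages of all genes or all consensus regions stand beside the counts instead.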

Additional observations from a re-analysis of the deposited data

How the results depend on the processing

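The number of near-gene regions depended on the peaks admitted. It was 735 with peaks of at least 5-fold, 1151 with peak scores of at least 100 and 638 for regions of all 3 lists, against 2079. With 1 list left out it ranged from 646 (without list 2) to 1927 (without list 1), and it was 778 without list 3. It stayed within 1.5 times of 2079 with summits joined within 200 bp (1897), the strongest summit as position (2114), a limit of 500 bp (1421) or 2000 bp (2664) and noncoding genes included (2095). The share of consensus regions was 29.3% for a 500 bp limit and 55.0% for 2000 bp, which follows from the limit, and between 40.0% and 46.7% with 1 list left out. The share held by all 3 lists was 21.4% with peaks of at least 5-fold and 27.4% for the 500 bp limit. The share within 200 bp of a gene, an alternative added after seeing the data, was 35.5% with peaks of at least 5-fold, 37.1% for regions of all 3 lists and 35.9% without list 2, against 42.6%. The causes were not tested. Alternatives on strand and motifs were not run. No paired analysis was possible because each list already holds 1 PIF1 library over its WT library and gives no WT value per sample. The precision of 3 lists limits every share.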

Other observations

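After the values were known, genes were grouped by the stem of their symbol. Of those with ERF symbols, for factors of the ethylene response family, 8 of 23 were nearest to a near-gene region, and of IQD genes, for calmodulin-binding proteins, 8 of 24. GRF symbols, which the table uses for more than 1 family, had 6 of 21. WRKY and NAC genes, for plant transcription factors, had 12 of 67 and 12 of 79, and MYB genes 16 of 120. CYP genes, for cytochrome P450 enzymes, had 13 of 229 (5.68%), below the 7.33% of all genes. Symbols miss members under other names, and these groups were not tested.

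Genes with 2 near-gene regions included the transcription factor genes ARF6, GTL1 and NAC004. GTL1 had 5.14, 27.36 and 11.39 in lists 1, 2 and 3 at 156 bp, and a region of lists 2 and 3 at 564 bp. NAC004 had 5.65, 38.11 and 12.11 at 111 bp and a region of lists 1 and 2 at 655 bp. ARF6, for an auxin response factor, had 3.45, 9.38 and 4.06 at 816 bp. Nearest genes had a median length of 2214 bp, against 2078 bp for all protein-coding nuclear genes.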
